A study of Mus musculus with 8 samples.

Results

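Immediate early genes are transcribed within minutes of a growth factor, cytokine or stress signal, without new protein synthesis, from promoters where serum response factor, its ETS partners and CREB already wait. Many encode transcription factors that then switch on later genes, and others encode proteins that shut the response down again. In the liver they are known for their transient activation after partial hepatectomy, bile duct obstruction and even the handling of tissue, and Myc is itself counted among them. The 10 genes described here were Fos, Fosb, Jun, Junb, Egr1, Ier2, Ier3, Dusp1, Zfp36 and Btg2. They were found by gene symbol, as 10 of 53816 gene IDs, and the question was how they stood in each liver and whether they followed Myc.

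RNA was sequenced from whole livers of 8 mice, all after bile duct ligation, which stops bile flow and injures the liver by cholestasis. In 4 mice the genotype was wild type (control). In the other 4 the label gives Myc overexpression in liver sinusoidal endothelial cells (Myc-labelled). No source used here gives the promoter driving the transgene, the age and sex of the mice or the time after surgery. All values are TPM, a level corrected for transcript length that sums to 1000000 in each library, and they are given in the order of control replicates 1 to 4 and then Myc-labelled replicates 1 to 4.

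A list of hepatocyte markers summed to 69105 to 124537 TPM and the sinusoidal and pan-endothelial markers to 126 to 238 TPM. In whole tissue, fewer cells of a type and less RNA per cell cannot be told apart. The libraries held 5.29 to 6.74 Gb of aligned bases, derived from coverage and FPKM. Myc (chromosome 15, 61985391 to 61990374) was measured at 272, 207, 554 and 89.2 TPM in the controls and at 339, 356, 25.6 and 249 TPM in the Myc-labelled livers. It therefore went against the label in that the lowest value of all lay in the library labelled Myc replicate 3. The log2 difference, Myc-labelled minus control on the log2(TPM + 1) scale used throughout, was -0.45 ± 0.95 (SE, limma adjusted p = 1.0). It was 0.43 without Myc-labelled replicate 3 and 0.23 with array weights. Whole-liver Myc therefore did not separate the groups, and every direction between groups below rests on the labels alone. No source used here says whether reads of the transgene were counted under Myc, so these levels, and the relations to Myc given further on, may or may not include it.

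The regulatory sequence upstream of these genes is shown as a description, and its part in their levels was not tested. RefSeq promoters (build GRCm38.p6, 250 bases before to 50 after the start site) were found for 8 of the 10 members, and not for Egr1 and Ier2. Those of Fos and Ier3, the members with the widest range between livers, and of Dusp1 and Btg2 are printed 5′ to 3′ for the 250 bases before the start site. Capitals mark TATAAA, the palindrome TGACGTCA bound by CREB, and the EGR site GCGNGGGCG. They lie at chr12:85473640-85473889 (+), chr17:35821463-35821712 (+), chr17:26508473-26508722 (-) and chr1:134079156-134079405 (-) in that order.
Fos: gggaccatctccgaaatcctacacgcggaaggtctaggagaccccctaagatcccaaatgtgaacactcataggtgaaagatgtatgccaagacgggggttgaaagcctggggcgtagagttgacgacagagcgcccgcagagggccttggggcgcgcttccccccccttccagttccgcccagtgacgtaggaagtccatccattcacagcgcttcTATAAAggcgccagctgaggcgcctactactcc
Ier3: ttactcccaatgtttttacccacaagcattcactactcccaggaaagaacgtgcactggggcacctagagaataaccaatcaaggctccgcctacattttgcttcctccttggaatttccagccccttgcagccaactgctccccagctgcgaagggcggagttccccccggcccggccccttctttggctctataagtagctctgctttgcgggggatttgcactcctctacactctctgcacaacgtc
Dusp1: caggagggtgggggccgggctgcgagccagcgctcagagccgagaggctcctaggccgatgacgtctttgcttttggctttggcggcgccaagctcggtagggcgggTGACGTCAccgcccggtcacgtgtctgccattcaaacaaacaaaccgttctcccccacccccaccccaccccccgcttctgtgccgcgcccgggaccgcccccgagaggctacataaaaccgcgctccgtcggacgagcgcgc
Btg2: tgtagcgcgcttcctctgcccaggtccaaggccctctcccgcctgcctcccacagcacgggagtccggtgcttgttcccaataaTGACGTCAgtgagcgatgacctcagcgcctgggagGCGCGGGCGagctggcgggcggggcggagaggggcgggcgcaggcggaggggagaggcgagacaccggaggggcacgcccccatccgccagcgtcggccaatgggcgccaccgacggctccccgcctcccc

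The CREB palindrome was found in Dusp1 and Btg2, 2 of the 8 member windows, against 1.79% of the 32851 promoters in the table and 2.92% of the promoters of tested genes. Its shorter core TGACG, which overlaps the palindrome, was in 5 of 8 (Fos, Fosb, Junb, Dusp1 and Btg2) against 30.5% of the promoters of tested genes. The CArG box, the site of serum response factor, was matched in 1 of 8 windows, against 1.24% of the promoters of tested genes. That window is from Zfp36, shown with the box in capitals (chr7:28379267-28379296, minus strand).
Zfp36: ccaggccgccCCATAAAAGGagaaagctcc
GCGNGGGCG was found in Fosb, Zfp36 and Btg2, 3 of 8 against 10.3%, and TATAAA in Fos and Junb, 2 of 8 against 8.04%. Counted from the start site, TATAAA lay at -33 to -28 in Fos but at 1 to 6 in Junb, not upstream of it. TGANTCA, the site bound by Fos and Jun dimers, was found in 0 of 8, against 5.42% of promoters of tested genes. Both strands were searched over all 300 bases, and sites farther upstream were not covered. A match here is a description of the letters and not evidence of binding, and Ier3 and Jun held none of the motifs searched.

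The levels of the members ran from Zfp36 at a mean of 102 ± 24.7 TPM (SD, n = 8 livers) to Fosb at 0.533 ± 0.342 TPM. Between these came Junb (80.5 TPM), Dusp1 (72.4 TPM), Btg2 (48.3 TPM), Ier2 (41.1 TPM), Jun (35 TPM), Egr1 (24.5 TPM), Ier3 (17.7 TPM) and Fos (8.53 TPM). Neighbours in this order differed by less than the SD of their difference over the 8 livers, except Fos and Fosb. Even so Ier3 exceeded Fos, and Fos exceeded Fosb, in 8 of 8 livers, whereas Junb exceeded Dusp1 in 5 of 8. As testing required a mean of 1 TPM or more, 9 of the 10 members passed and Fosb did not.

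**Figure D1:**
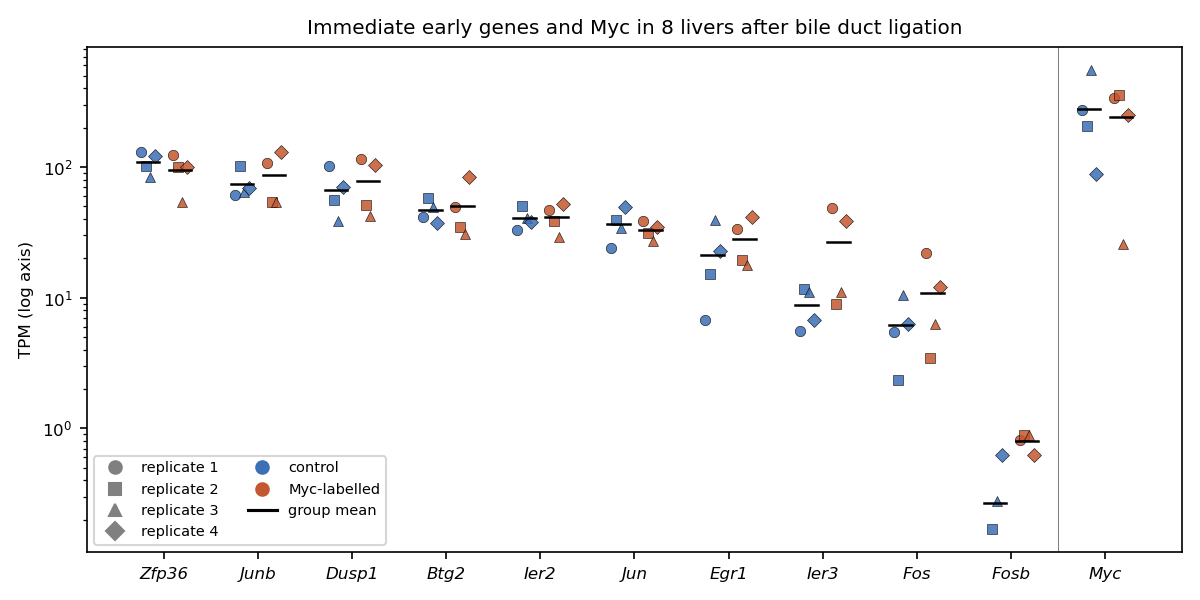
TPM of the 10 members and of Myc (log axis) in each of 8 libraries, controls in blue and Myc-labelled in orange, with marker shape giving the replicate and bars the group means; Fosb in control replicate 1 is listed at 0 and has no point. Ier3 and Fos are highest in Myc-labelled replicates 1 and 4, while the Myc points spread from 25.6 to 554 TPM.

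None of the members differed between the groups past the threshold. With limma over 13055 genes, 0 of 9 tested members passed an adjusted p of 0.05, where the share of all genes passing was 0%. At an unadjusted p under 0.05 the count was again 0 of 9, against 1.86% of all genes, with Ier3 just above that threshold. The groups did not overlap in 0 of the 9, against 1.26% of all genes. On the log2 scale 7 members were higher and 2 lower in the Myc-labelled livers, with a median difference of 0.14, beside 0.037 for all tested genes, of which 58.0% were higher. With median-of-ratios scaling 5 members were higher and 4 lower, beside 49.0% of all genes higher. Leaving out Myc-labelled replicate 1 brought that median to -0.03, leaving out replicate 4 to -0.09, and leaving out replicate 2 or replicate 3 to 0.32. It was also 0.06 without control replicate 1, 0.05 without control replicate 3 and -0.09 with array weights.

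Among the transcription factors, Fos encodes the partner that dimerises with Jun proteins to form AP-1. It stood at 5.48, 2.33, 10.5 and 6.31 TPM in the controls and at 21.9, 3.43, 6.31 and 12 TPM in the Myc-labelled livers. Myc-labelled replicates 1 and 4 exceeded all controls, while replicates 2 and 3 lay among them. The log2 difference of Fos was 0.60 ± 0.54 (limma adjusted p = 1.0), with a 95% interval of -0.62 to 1.82, and with array weights it was -0.10. Leaving out 1 library moved it from 0.20 (without Myc-labelled replicate 1) and 0.28 (without control replicate 2) to 0.99 (without Myc-labelled replicate 2). The highest value was 9.38 times the lowest, and the SD of Fos over the 8 livers stood at the percentile 97.3 of all tested genes.

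Fosb, a close relative of Fos with the same role in AP-1, was barely detected. It was listed at 0, 0.168, 0.276 and 0.620 TPM in the controls and stood at 0.809, 0.881, 0.882 and 0.628 TPM in the Myc-labelled livers, at a mean coverage of at most 1.72 reads per base. All 4 Myc-labelled values lay above all controls, with control replicate 4 and Myc-labelled replicate 4 nearly level. In a fit with no filter on low values its log2 difference was 0.53 ± 0.17 (unadjusted p = 0.0114, limma adjusted p = 0.996). The difference therefore did not pass the threshold, and the coverage behind it was low.

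Jun, the main AP-1 partner of Fos, is a single-exon gene. It stood at 24.2, 39, 34.4 and 49.6 TPM in the controls and at 39, 31.3, 27.2 and 35 TPM in the Myc-labelled livers. The controls held both its extremes, and the Myc-labelled values all lay inside the control range, with a log2 difference of -0.12 ± 0.22 (limma adjusted p = 1.0). Jun overlaps Junos on the opposite strand by 689 bases, and no source used here says whether reads were assigned by strand.

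Junb, which forms AP-1 dimers that often restrain Jun, was the most abundant of the AP-1 genes among the members (Fos, Fosb, Jun and Junb). It measured 61.4, 101, 64.9 and 69.4 TPM in the controls and 107, 54.3, 54.2 and 131 TPM in the Myc-labelled livers. The Myc-labelled values enclosed the control range, with replicates 1 and 4 above every control and replicates 2 and 3 below every control. Its log2 difference was 0.14 ± 0.30 (limma adjusted p = 1.0), and -0.10 without Myc-labelled replicate 4. Junb was 1.4 to 3.76 times as abundant as Jun, and Jun and Junb together exceeded Fos and Fosb together by 6.43-fold in Myc-labelled replicate 1 to 56.2-fold in control replicate 2. A short Junb transcript model overlaps Prdx2 on the opposite strand by 351 bases, and Prdx2 was present at a mean of 104 TPM.

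Egr1, a zinc finger factor induced through serum response factor, varied more within the controls than between groups. It stood at 6.77, 15.1, 39.7 and 23 TPM in the controls and at 33.3, 19.6, 17.7 and 41.1 TPM in the Myc-labelled livers. Control replicate 3 was nearly as high as the highest Myc-labelled liver, and control replicate 1 was the lowest of all, for an overall range of 6.08-fold. The Egr1 difference came to 0.55 ± 0.49 on the log2 scale (limma adjusted p = 1.0), and the 95% interval ran from -0.57 to 1.66. That difference was 0.12 without control replicate 1, 0.92 without control replicate 3 and 0.080 with array weights. Ier2, a short nuclear protein of the early growth response, was the steadiest member, at 33.3, 50, 40.7 and 38 TPM in the controls against 47.3, 38.3, 29.1 and 52.1 TPM. Its highest value was 1.79 times its lowest and its SD stood at the percentile 47.1 of tested genes.

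Of the members that protect cells or end the response, Ier3, a survival gene also induced by NF-kappaB and p53, had the largest group difference. Its levels were 5.6, 11.6, 11.1 and 6.7 TPM in the controls and 48.5, 8.94, 11 and 38.4 TPM in the Myc-labelled livers. Myc-labelled replicates 1 and 4 were above every other liver, and replicates 2 and 3 lay inside the control range. The Ier3 difference came to 1.23 ± 0.54 on the log2 scale (limma unadjusted p = 0.0519, adjusted p = 1.0), and the 95% interval ran from -0.01 to 2.46. It remained positive in 19 of 19 other settings, from 0.64 with array weights to 1.61 without Myc-labelled replicate 2. The unadjusted limma p was under 0.05 in 9 of those 19, from 0.00943 without Myc-labelled replicate 2, while the adjusted p was 0.897 or higher in all of them.

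Dusp1 encodes the nuclear phosphatase that inactivates p38, JNK and ERK. It stood at 102, 56.1, 38.8 and 70.3 TPM in the controls and at 115, 51.6, 42.5 and 103 TPM in the Myc-labelled livers. Control replicate 1 was nearly as high as Myc-labelled replicate 4, so the high livers came from both groups (log2 difference 0.18 ± 0.37, limma adjusted p = 1.0). The annotated span of Dusp1 reaches from 26505590 to 26562128 on chromosome 17 because of a long transcript model, which meets Ergic1 (mean 37.4 TPM) on the opposite strand.

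Zfp36, which encodes tristetraprolin, a protein that destroys AU-rich mRNAs, including those of cytokines and of other early genes, ran differently. It was measured at 131, 102, 83.6 and 122 TPM in the controls and at 123, 100, 54.4 and 101 TPM in the Myc-labelled livers. Its highest value was thus in control replicate 1, where Egr1, Ier3, Jun and Fosb were at their lowest. The log2 difference was -0.25 ± 0.26 (limma adjusted p = 1.0), and -0.0069 without Myc-labelled replicate 3. Btg2, an antiproliferative cofactor of mRNA deadenylation and a p53 target, stood at 41.2, 58.4, 49.9 and 37.1 TPM against 49.4, 34.9, 30.9 and 84.6 TPM. Only Myc-labelled replicate 4 exceeded every control, and the log2 difference was 0.0062 ± 0.29 (limma adjusted p = 1.0).

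**Figure D2:**
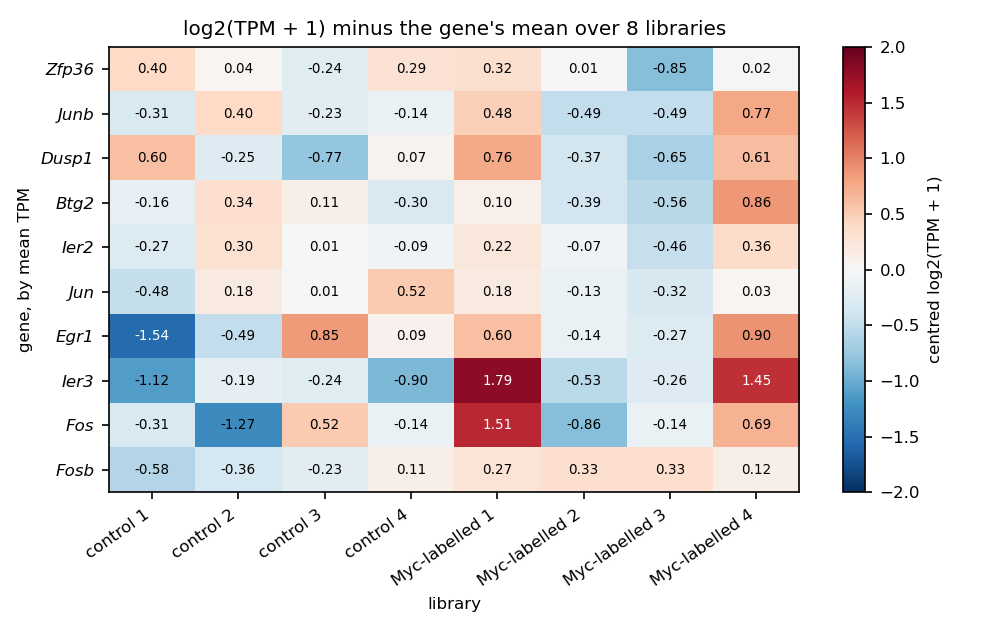
Level of each member, log2(TPM + 1) minus the gene's mean over the 8 libraries (colour and number), with genes ordered by mean TPM and libraries in columns. On this scale all 10 rows are above 0 in Myc-labelled replicates 1 and 4 (Zfp36 by 0.023 in replicate 4), and Zfp36 and Dusp1 stand apart from Egr1 and Ier3 in control replicate 1.

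Read by liver rather than by gene, the members were high in the same livers. On the log2(TPM + 1) scale all 10 were above their own mean in Myc-labelled replicate 1 and in Myc-labelled replicate 4, where their centred log2 mean was 0.62 and 0.58. The share of all tested genes above their own mean in these livers is not given. Genes in general also stood higher in Myc-labelled replicate 1, whose median-of-ratios factor was 1.23 (0.30 on the log2 scale), and lower in replicate 3, with 0.855, against 0.956 to 1.03 in the others. With that scaling the centred mean was 0.36 in replicate 1, where Jun, Ier2 and Btg2 were below their means, and 0.56 in replicate 4, where Zfp36 was. In the other 6 livers the unscaled centred mean was between -0.38 and -0.02, with control replicate 1 and Myc-labelled replicate 3 lowest. Of the 10 members 4 had their maximum in Myc-labelled replicate 4 and 3 in replicate 1, while 4 had their minimum in control replicate 1 and 4 in Myc-labelled replicate 3. The summed TPM of the members was 585 and 599 in Myc-labelled replicates 1 and 4, 343 and 274 in replicates 2 and 3, and 374 to 436 in the controls.

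The co-variation was not uniform. Over the 45 pairs of members, the Pearson r across the 8 livers had a median of 0.42 and was positive in 38 pairs, given as a description since all pairs share the same 8 libraries. These r were taken without scaling, and no values over all pairs of genes are given. They therefore cannot be called particular to the members. All tested genes had a median r of 0.36 with the mean of the members. Junb, Ier2 and Btg2 were the closest trio, with r of 0.87 to 0.89. Dusp1 and Zfp36, both of which end the response, gave 0.73, but Zfp36 gave -0.16 with Egr1 and 0.05 with Ier3.

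Other measures stood out in 1 or in both of these livers, and their part in the levels of the members was not tested. Myc-labelled replicate 1 had the highest sum of stellate and myofibroblast markers, at 297 TPM against 30.7 to 136 TPM elsewhere, and 13636 genes above 1 TPM against 12442 to 13086. Myc-labelled replicate 4 did not stand out in either, at 108 TPM and 12945 genes. Myc-labelled replicate 4 had the highest sum of neutrophil markers, at 163 TPM against 14.6 to 77.5 TPM, although the defining marker genes Ly6g and Camp were at 0 in at least 1 library. It also had the highest sum of cholangiocyte markers, at 971 TPM against 98.4 to 441 TPM. Per group, the neutrophil markers ranged from 14.6 to 73.3 TPM in the controls and 28.4 to 163 TPM in the Myc-labelled livers, with 8 of 8 tested markers higher. The stellate markers ranged from 30.7 to 136 and 41.4 to 297 TPM (9 of 9 higher), and the cholangiocyte markers from 98.4 to 322 and 118 to 971 TPM (6 of 6 higher). Red cell and platelet markers were also higher in 6 of 6, at 358 to 1781 and 752 to 1603 TPM. The Kupffer cell markers were lower in 10 of 10, at 864 to 1779 and 664 to 1243 TPM, and the endothelial markers in 11 of 12, at 164 to 238 and 126 to 220 TPM. Beside these counts, 58.0% of all tested genes were higher and 1.86% had a limma unadjusted p under 0.05. That p was reached by 3 of 8 neutrophil, 1 of 9 stellate, 3 of 12 endothelial and 2 of 10 hepatocyte markers. Without scaling it was reached by 0 cholangiocyte, 0 Kupffer cell and 0 red cell and platelet markers. In that fit 0 markers in these lists passed an adjusted p of 0.05. With median-of-ratios scaling 5 of 10 Kupffer cell markers had a limma unadjusted p under 0.05, beside 333 of 13055 genes. With quantile normalization 4 of 10 did, beside 318 genes. The endothelial markers then stood at 4 and 3 of 12, and the neutrophil markers at 2 of 8 in both. Myc-labelled replicate 4 had the lowest sums of endothelial (126 TPM) and hepatocyte markers (69105 TPM), while replicate 1 had 220 TPM and 72745 TPM.

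In their relation to Myc the members stood near the middle of all genes. The Pearson r of log2(TPM + 1) with Myc over the 8 livers was positive for 9 of 9 tested members, from 0.06 for Jun to 0.57 for Zfp36. Their median of 0.24 lay below the median of 0.27 over all 13054 tested genes other than Myc, the members included, of which 73.8% were positive. An exact permutation p under 0.05 was reached by 0 of 9 members, against 7.89% of all genes, and the adjusted p over all genes was under 0.05 for 0% of them. By Spearman rho the exact permutation p under 0.05 was likewise reached by 0 of 9, and by 3.91% of all genes. With median-of-ratios scaling 8 of 9 members were positive with a median Pearson r of 0.11. Zfp36 then stood at 0.43, Ier2 at 0.35 and Btg2 at 0.33. No median over all genes is given for that scaling.

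Zfp36 and Ier2 had the highest r. For Zfp36 it was 0.57 (exact permutation p = 0.152, adjusted p = 0.652, two-sided), but Spearman rho was 0.024 (exact p = 0.977), and r was -0.53 without Myc-labelled replicate 3 alone. For Ier2 it was 0.57 (exact permutation p = 0.142, adjusted p = 0.647), with rho of 0.29 (exact p = 0.501) and r of 0.043 without that library. For Btg2 it was 0.48 (exact permutation p = 0.238, adjusted p = 0.711), with rho of 0.24 (exact p = 0.582) and r of 0.13 without that library. The Myc-labelled replicate 3, lowest in Myc at 25.6 TPM, was also the lowest in each of these 3 genes and in Junb.

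The remaining members had a lower Pearson r, although Egr1 had the highest rho of the tested members. For Junb r was 0.28 (exact permutation p = 0.529) and rho 0.048 (exact p = 0.935). Dusp1 gave 0.24 (exact permutation p = 0.603) with rho of -0.071 (exact p = 0.882), and Egr1 0.24 (exact permutation p = 0.549) with rho of 0.33 (exact p = 0.428). The values for Ier3 were 0.22 (exact permutation p = 0.635) and 0.14 (exact p = 0.752), those for Fos 0.21 (exact permutation p = 0.622) and 0.19 (exact p = 0.665). Jun stood at 0.06 (exact permutation p = 0.887) and -0.21 (exact p = 0.619). Over all genes the adjusted p of these 6 was 0.859 to 0.972. Fosb, which was not among the tested genes, gave -0.35 (exact permutation p = 0.415) and -0.14 (exact p = 0.752).

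**Figure D3:**
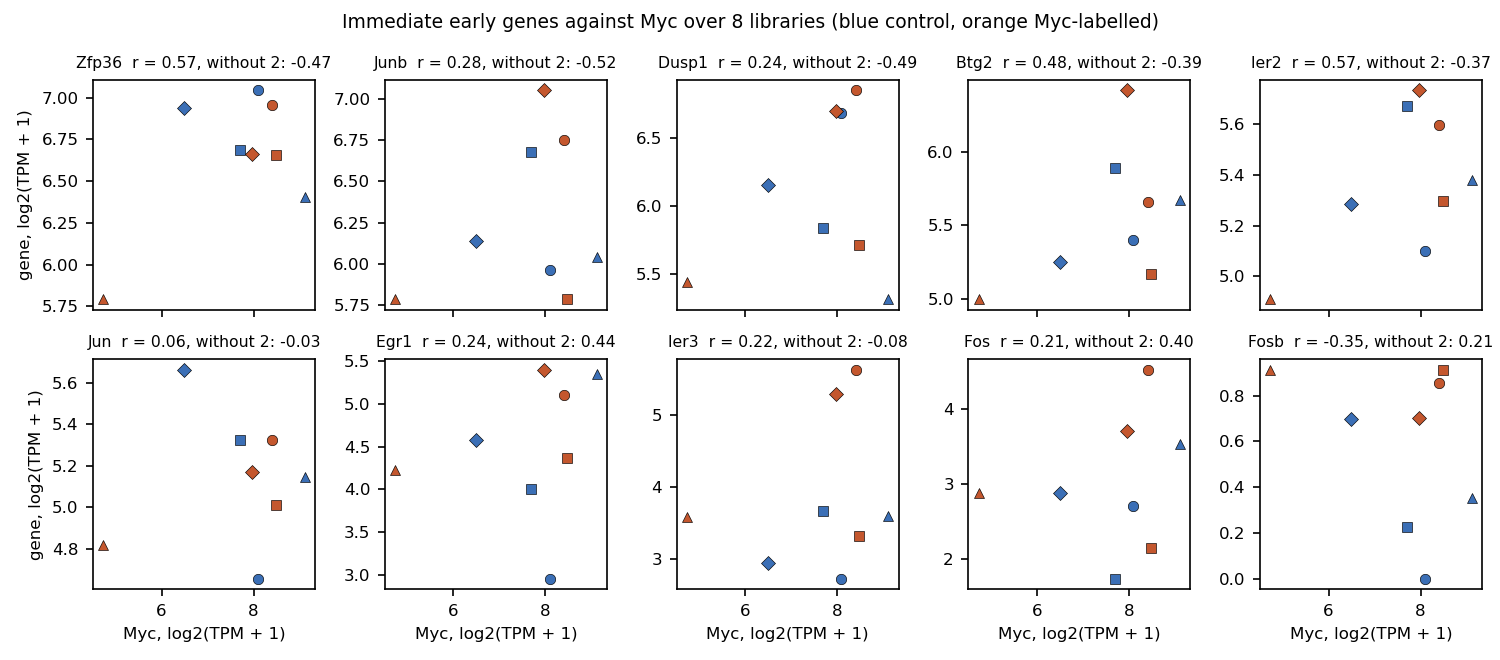
Each member's log2(TPM + 1) against that of Myc over 8 libraries, controls in blue and Myc-labelled in orange, with Pearson r for all 8 and without the 2 libraries farthest from the Myc median. The Myc-labelled replicate 3 (triangle, far left) sits at the bottom left for Zfp36, Junb, Btg2 and Ier2, and r for Zfp36 goes from 0.57 to -0.47 without those libraries.

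Leaving out the 2 livers farthest from the Myc median, control replicate 4 and Myc-labelled replicate 3, turned most of these relations. The sign was then negative in 7 of 9 members, with a median of -0.37 against 0.04 over all genes, and positive only in Fos (0.40) and Egr1 (0.44). For Zfp36 it was -0.47, for Junb -0.52, for Dusp1 -0.49, for Btg2 -0.39 and for Ier2 -0.37, while Jun was at -0.03 and Ier3 at -0.08. The smallest exact permutation p among them was 0.278, for Junb. Leaving out control replicate 4 alone, 9 of 9 stayed positive with a median of 0.27. Leaving out Myc-labelled replicate 3 alone, 5 of 9 were positive with a median of 0.043, and Jun (-0.58), Zfp36 (-0.53), Dusp1 (-0.26) and Junb (-0.12) were negative. With values centred within each group, r was 0.02 to 0.58 with a median of 0.33, and 0 of 9 reached an exact permutation p under 0.05.

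**Figure D4:**
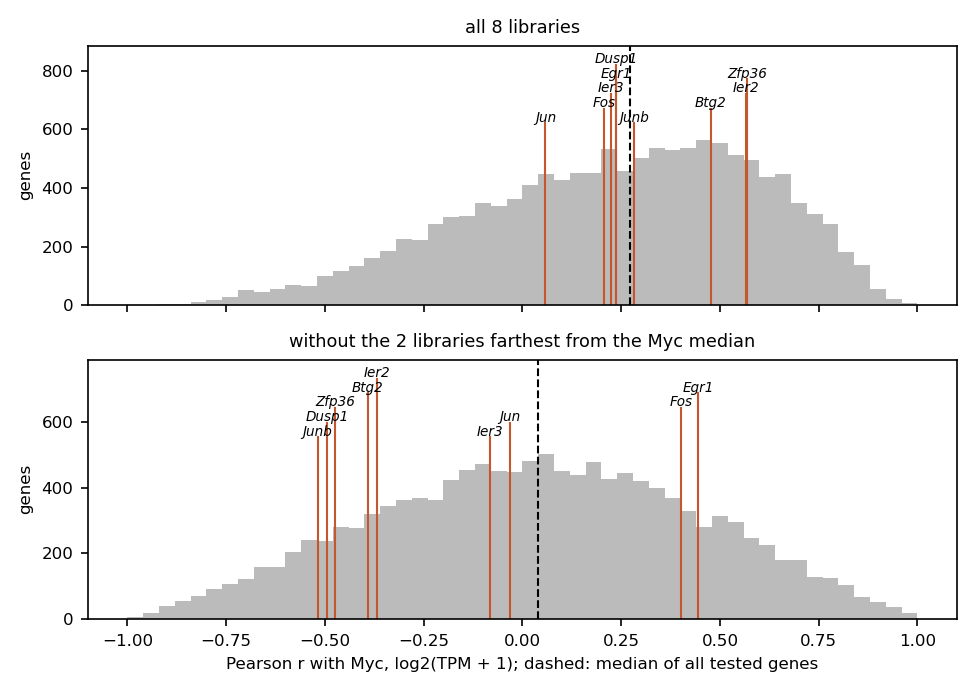
Number of genes at each Pearson r with Myc (grey bars) for all 8 libraries (top) and without the 2 farthest from the Myc median (bottom), with tested members as orange lines and the median of all genes dashed. In the top panel the members sit around the dashed line at 0.27, and in the bottom panel 7 of 9 lie left of 0.

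The remaining genes of the immediate early programme were read from lists drawn up with earlier results known, and their counts stand beside 58.0% of all tested genes higher in the Myc-labelled livers. Of all tested genes, 1.86% had a limma unadjusted p under 0.05. Of the other primary response transcription factors 13 of 15 tested were higher and 2 lower in the Myc-labelled livers, with 0 past an adjusted p of 0.05 by limma, 1 at an unadjusted p under 0.05 and a median log2 difference of 0.21. Fosl1, a Fos relative, was listed at 0, 0, 0.113 and 0.276 TPM in the controls and stood at 3.57, 0.36, 0.203 and 4.67 TPM in the Myc-labelled livers. It is the gene counted at an unadjusted p under 0.05, and it passed the filter on low values only through the Myc-labelled livers, so it had to differ. Without it 12 of 14 were higher, with a median of 0.16 and 0 at an unadjusted p under 0.05. Maff, a small Maf factor, stood at 3.89 ± 1.76 against 9.64 ± 7.2 TPM (SD, n = 4 per group), and the orphan nuclear receptor Nr4a1 at 4.47 ± 1.83 against 8.45 ± 4.18 TPM. The largest r with Myc in that list were 0.62 for Klf4, 0.54 for Nr4a1 and 0.53 for Klf10, whose exact permutation p were 0.0935, 0.163 and 0.157. These r were 0.38, 0.30 and -0.79 without the 2 libraries farthest from the Myc median.

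Among other primary response effectors 12 of 17 were higher and 5 lower, with 0 past the adjusted threshold by limma, 1 at an unadjusted p under 0.05 and a median of 0.08. The kinase Sgk1 stood at 41.3 ± 4.9 against 66.2 ± 18.2 TPM (limma unadjusted p = 0.0127, adjusted p = 1.0), Gadd45a at 3.19 ± 1.98 against 5.93 ± 4.29 TPM and Sik1 at 31.5 ± 21.8 against 47.8 ± 21.2 TPM. With Myc, the survival gene Mcl1 had r of 0.67, Sik1 of -0.51 and the matricellular gene Ccn2 of 0.49 (exact permutation p of 0.0754, 0.208 and 0.219), and 0.12, -0.33 and 0.69 without those 2 libraries.

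The genes that dampen MAP kinases or shorten mRNA life, beyond Dusp1, Zfp36 and Btg2, were higher in 13 of 15 and lower in 2, with 0 past the adjusted threshold by limma, 1 at an unadjusted p under 0.05 and a median of 0.25. Dusp5, a nuclear ERK phosphatase, was at 1.35, 0.872, 2.41 and 1.32 TPM in the controls and at 7.22, 2.46, 2.29 and 8.72 TPM in the Myc-labelled livers. Its 2 highest livers were again replicates 1 and 4 (log2 difference 1.18 ± 0.37, limma unadjusted p = 0.00895, adjusted p = 1.0). Btg1, the relative of Btg2, stood at 28.9 ± 7.21 against 39.5 ± 9.27 TPM and Dusp10 at 3.67 ± 1.84 against 5.6 ± 1.67 TPM. The r with Myc was 0.58 for Spry1, 0.56 for Spry2 and 0.38 for Zfp36l1 (exact permutation p of 0.13, 0.123 and 0.34), and 0.40, 0.067 and -0.13 without those 2 libraries.

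Upstream kinases and promoter-bound factors were higher in 16 of 20 and lower in 4, with 0 past the adjusted threshold and 0 at an unadjusted p under 0.05 by limma, and a median of 0.09. Mapk9, which encodes JNK2, stood at 18.9 ± 1.31 against 22.2 ± 4.02 TPM, Mapk3, which encodes ERK1, at 35.8 ± 5.64 against 42.1 ± 7.57 TPM, and Crem at 12 ± 2.29 against 17.2 ± 7.7 TPM. The r with Myc was -0.61 for Mapk14 and 0.53 for Map2k2 (exact permutation p of 0.0952 and 0.173), and -0.53 and 0.079 without those 2 libraries. With median-of-ratios scaling the counts of higher genes in these 4 lists were 10 of 15, 10 of 17, 13 of 15 and 14 of 20. In these 4 lists 0 genes related to Myc at an exact permutation p under 0.05, against 7.89% of all genes, and the list medians of r were 0.10 to 0.24.

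The genes whose pattern over the 8 livers was most like the centred mean of the 10 members were, by Pearson r and among genes averaging 2 TPM or more, Rab6a (0.991), Sept11 (0.985), Mapre1 (0.980), Plin2 (0.978), Rad23b (0.975), Tgoln1 (0.973), Srxn1, Aptx and Sike1 (0.972 each) and Tpm3 (0.970). These 10 were picked as the highest r over 8 libraries, so their r are high by selection and are not a test. The ranking used unscaled values and was not repeated with median-of-ratios scaling. Plin2, the lipid droplet coat protein, stood at 73.6 to 139 TPM in the controls and at 370.4, 98.8, 54.5 and 299.9 TPM in the Myc-labelled livers. Srxn1, the sulfiredoxin induced by NRF2, stood at 35.4 to 92 TPM in the controls and at 204, 48.9, 34.3 and 324 TPM. In both genes the 2 high livers were those in which all members were above their mean without scaling. Over all tested genes the median r with the member mean was 0.36, and it was 0.57, 0.52, 0.61 and 0.63 in the lists of transcription factors, effectors, feedback genes and upstream factors. It was as high for neutrophil markers (0.65) and for stellate and myofibroblast markers (0.63).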

How the data were processed

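Whole-liver RNA of 8 mice, 4 control and 4 Myc-labelled, was sequenced from libraries of an mRNA kit, per the labels' protocols. The submitters' processing notes name HISAT2, StringTie and the build mm10. No source used here gives the annotation or the strand setting. TPM, deposited by the authors, was the unit of all tests. FPKM, deposited by the authors, and coverage, a signal deposited by the authors, served as alternatives. With 10 to 15 repeated gene rows per library summed (Junb had them in 3 libraries), 53816 IDs remained.

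The members and lists were chosen with earlier results of these data known. Groups were compared with limma 3.58.1 (trend and robust, two-sided, R 4.3.3) on log2(TPM + 1) over the 13055 genes averaging 1 TPM or more, and p-values were adjusted by Benjamini-Hochberg (threshold 0.05). Relations to Myc used exact permutation of the libraries, two-sided, over the same genes. All members were named, with up to 3 genes per list by smallest p and 3 by largest absolute r, and the 10 genes most like the member mean. A gene that this rule named and a marker gene are not reported here. Coordinates are mm10. GENCODE M21 gave transcript models and overlaps. Scripts used Python 3.11.15 and were tested on simulated data. Read counts were not used, so no counting interval is given. The coverage-based alternative was chosen after seeing the data.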

Additional observations from a re-analysis of the deposited data

How the results depend on the processing

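The count of members past an adjusted p (0) and the count with an exact p under 0.05 for Myc (0) were the same in all 19 and 21 other settings run, although with the replicate block no exact p under 0.125 was possible, so that setting could not have changed the count for Myc. Single-gene directions, none past a threshold, were less firm. With array weights the log2 difference was -0.10 for Fos, -0.091 for Junb, -0.0040 for Ier2, -0.14 for Btg2 and 0.23 for Myc. Median-of-ratios scaling gave -0.020 for Ier2 and -0.039 for Btg2, and quantile normalization -0.012 for Btg2. Leaving out 1 library gave ranges of -0.30 to 0.039 for Jun, -0.10 to 0.32 for Junb, -0.091 to 0.18 for Ier2, -0.048 to 0.43 for Dusp1, -0.28 to 0.19 for Btg2 and -0.91 to 0.43 for Myc. The r of Jun with Myc was -0.040 with FPKM, -0.21 by Spearman, -0.14 without a log, -0.059 with coverage-based levels and -0.27 with median-of-ratios or quantile scaling. That of Dusp1 was -0.071 by Spearman and -0.0075 without a log. Leaving out 1 library, r ranged from -0.58 to 0.40 for Jun, -0.12 to 0.43 for Junb, -0.26 to 0.60 for Dusp1 and -0.53 to 0.77 for Zfp36. Without the 2 libraries farthest from the Myc median the median r was -0.37, with -0.032 for Jun, -0.52 for Junb, -0.37 for Ier2, -0.082 for Ier3, -0.49 for Dusp1, -0.47 for Zfp36 and -0.39 for Btg2. The cause was not tested.

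Controls and Myc-labelled libraries share replicate numbers. The deviations of same-numbered libraries correlated at -0.06 to 0.13, with 1 of 4 pairs above 0.1. Those of different-numbered libraries correlated at -0.21 to 0.22, so this check cannot tell whether the numbers pair the libraries. With a replicate block the median log2 difference stayed at 0.14 with 0 members called, and the median r with Myc was 0.50. Coverage of Fosb, at most 1.72 reads per base, limits what can be said of it.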

Other observations

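Heat shock genes, which share with the immediate early genes a fast response to stress, were higher in 8 of 10 and lower in 2, beside 58.0% of all tested genes higher. By limma 0 passed an adjusted p of 0.05 and 0 were at an unadjusted p under 0.05, against 1.86% of all genes. Dnajb1 stood at 8.05 ± 1.31 against 10.1 ± 0.826 TPM, Hsp90aa1 at 54.7 ± 10.4 against 67.2 ± 17.8 TPM and Bag3 at 22.6 ± 6.46 against 25.3 ± 2.68 TPM. The mitochondrial chaperonin Hspd1 had the highest r with Myc of the named list genes, at 0.88 (exact permutation p = 0.00623, adjusted p = 0.602 over all genes, Spearman rho 0.69, exact p = 0.0694), and 0.23 without the 2 libraries farthest from the Myc median. Hspe1 had r of 0.69 and Hspa1b of -0.54 (exact permutation p of 0.0615 and 0.176), and -0.43 and -0.023 without those libraries. With median-of-ratios scaling 6 of the 10 heat shock genes were higher, beside 49.0% of all genes.

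Clock genes were higher in 3 of 13 and lower in 10, beside 58.0% of all tested genes higher. By limma 0 passed an adjusted p of 0.05 and 2 were at an unadjusted p under 0.05, against 1.86% of all genes. Those 2 went opposite ways, Arntl higher (log2 difference 0.80) and Ciart lower (-0.71). Counts and means over this list pool such genes, so they do not measure the state of the clock. With median-of-ratios scaling, and with quantile normalization, 1 clock gene was at an unadjusted p under 0.05. Myc-labelled replicate 4, a liver with high immediate early genes, stood lowest with a centred log2 mean of -0.81, while the other 7 livers lay between -0.02 and 0.22. Myc-labelled replicate 1, the other liver with high members, was at 0.04. Arntl stood at 5.94 ± 2.97 against 10.7 ± 3.34 TPM, Ciart at 34.1 ± 9.8 against 21.4 ± 9.31 TPM and Dbp at 34.3 ± 9.03 against 19.6 ± 15.8 TPM. With Myc, Nr1d1 had r of 0.55, Cry1 of -0.50 and Per2 of -0.41 (exact permutation p of 0.16, 0.206 and 0.326), and 0.27, -0.17 and 0.24 without the 2 libraries farthest from the Myc median. No source used here gives the time of day of collection, and its part in the levels of the members was not tested.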
